A study of Oncorhynchus mykiss with 9 samples.

Results

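Rainbow trout (Oncorhynchus mykiss) were held in acute hypoxia or in moderate hypoxia, and the difference between the livers of these 2 groups was measured by RNA sequencing of 3 libraries each. The comparison covers the 13979 of 42128 genes whose mean deposited FPKM (fragments per kilobase of transcript, scaled to the mapped fragments of the library) over these 6 libraries was at least 1, and the 6 libraries are part of 9, the other 3 being liver of control fish. The design text gives an exposure of 12 h, worded so that it may belong to both treatments or to the acute one alone. The sample titles of both hypoxia groups carry the number 12, without a unit. All fish are labelled wild-type, all samples are flash-frozen liver, and the oxygen levels, strain, age and sex are not given in the sources used here. Reoxygenated fish are not analysed here. The libraries are called acute 1 to 3, moderate 1 to 3 and control 1 to 3. The labels do not say if replicate libraries represent different fish. Every p-value therefore measures only the spread between these libraries, which may be technical. Each library was scaled by a median-of-ratios factor, and every level given is a scaled FPKM, in the order of libraries 1, 2 and 3. Fold changes are given as log2 values of acute over moderate hypoxia with their standard error (SE) and the adjusted p of limma, a linear model fitted across all genes. Control values come from a second deposited table, which holds the same moderate hypoxia values as the first. The control values were scaled in the same way, are given as levels and enter no test.

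Cells sense oxygen through hydroxylases that use it as a substrate. Prolyl hydroxylases of the EGLN family mark the alpha subunit of the hypoxia-inducible factor (HIF) for destruction, and the asparagine hydroxylase FIH blocks its activity. When oxygen falls, HIF pairs with ARNT and switches on genes of glycolysis, erythropoiesis, blood vessel growth and iron handling, and several of its own hydroxylases. The liver is also the main maker of plasma proteins, cholesterol and bile acids and the main site of amino acid breakdown, work that draws heavily on oxygen and ATP. Rainbow trout carry many duplicated genes from an ancestral salmonid genome doubling; copies with the same name are told apart here by gene ID, and reads may be shared between near-identical copies, so values of such copies are uncertain.

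Of the 13979 genes, 1383 (9.89%) were higher and 1388 (9.93%) lower in acute than in moderate hypoxia, 2771 in all (19.8%), by limma on log2(scaled FPKM + 0.5) with a Benjamini-Hochberg adjusted p under 0.05. Fold changes on this scale understate the change of genes with low values. A tested gene whose libraries of 1 group all lie under 1 FPKM passed the filter only through the other group. The filter itself favours a difference in such genes, here and wherever they are named below. Genes called higher with a log2 fold change of at least 1 numbered 154 (1.1% of the tested genes), and genes called lower with one of -1 or less numbered 170 (1.22% of the tested genes). In 5561 genes (39.8%) the 3 acute and 3 moderate libraries did not overlap. The groups overlapped in only 9 of the called genes, so a lack of overlap adds little to a call, here and wherever it is given below. The split between higher and lower depends on the scaling: the same fit on the FPKM as deposited called 504 higher and 3582 lower, 12.3% of its calls higher against 49.9%, because that scale moves the median log2 fold change of all genes to -0.21, against 0.003 after scaling. Leaving out 1 library gave 1338 calls without moderate 1, 1613 without acute 2, 1621 without acute 1 and 1771 without moderate 2, and 570 higher and 547 lower genes were called in each of the 6 fits. The authors' deposited table lists 1586 genes higher and 1295 lower at a false discovery rate under 0.05, of which 1365 and 1054 are among the 13979.

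**Figure D1:**
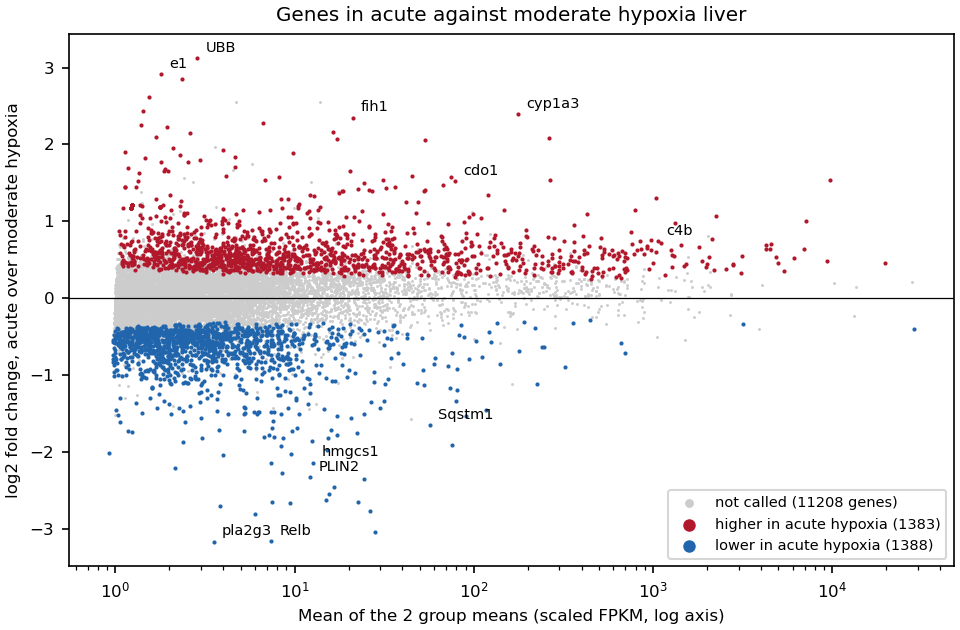
Each point is 1 of the 13979 genes; the x axis is the mean of the acute and moderate group means (scaled FPKM, log axis) and the y axis the log2 fold change of acute over moderate hypoxia. Red points are the 1383 genes called higher in acute hypoxia, blue points the 1388 called lower and grey points the rest; the right side of the plot, where levels are high, holds more red than blue points.

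Called genes were not spread evenly over levels and gene sizes. Among the 506 genes with a mean of 100 scaled FPKM or more, 39.3% were higher and 3.95% lower in acute hypoxia; among the 4965 genes under 2, 3.77% were higher and 9.08% lower. Genes called higher had a median genomic span of 8850 bp and genes called lower one of 27420 bp, against 13758 bp over all tested genes with a span in the RefSeq annotation, which may not be the assembly the authors used. In the class of shortest spans, of 5 classes of equal size, 15.1% were higher and 4.55% lower, and in the class of longest spans 5.64% were higher and 19.5% lower. After a lowess adjustment of each library for span, 1245 genes were called higher and 1186 lower, and these shares became 9.22% and 7.73% in the shortest class and 10% and 10% in the longest. Counts with this adjustment are given for part of the gene groups below. Every count of called members of a gene group below is to be read beside 9.89% higher and 9.93% lower of all tested genes. The part of the level of the genes in these counts was not tested. The scale factors were 0.905 to 0.928 in the acute and 1.05 to 1.15 in the moderate libraries, and 12724 to 13098 genes in the acute and 14197 to 15167 in the moderate libraries reached 1 FPKM. Read depth is unknown from FPKM; low values put it at 1 to 1.16 in the acute libraries and 0.877 to 1 in the moderate ones relative to acute 1. Pearson correlations of log2 values were 0.983 to 0.987 between acute libraries, 0.985 to 0.986 between moderate libraries and 0.958 to 0.972 across the groups.

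**Figure D2:**
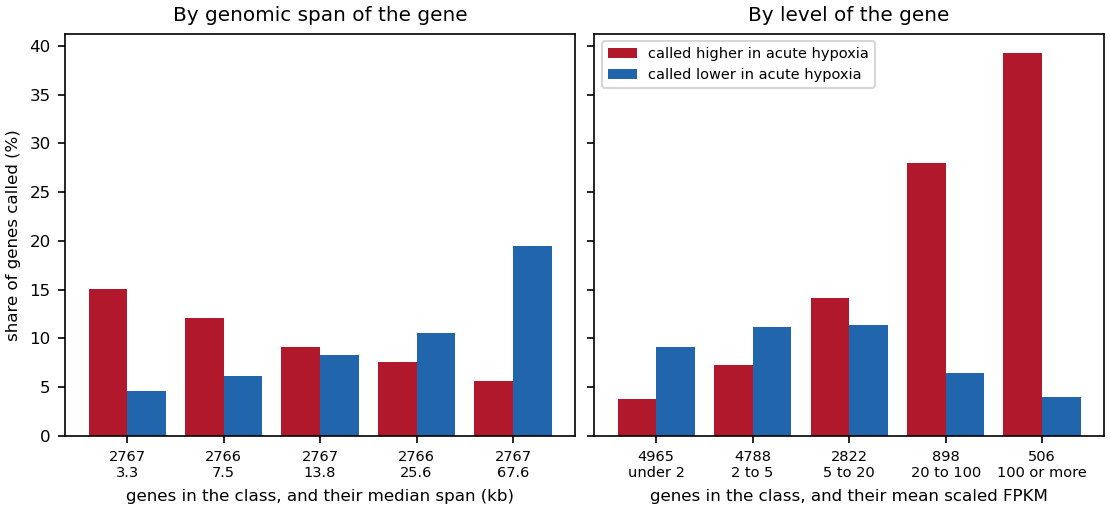
The left panel gives the share of genes called higher (red) or lower (blue) in acute hypoxia in 5 classes of equal size by genomic span, and the right panel in classes of mean scaled FPKM; the number of genes in each class and its median span or range of levels are written under the bars. Calls higher in acute hypoxia are most frequent among short genes (15.1%) and genes at 100 FPKM or more (39.3%), and calls lower among long genes (19.5%).

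For most of the called genes control livers lay nearer to acute than to moderate hypoxia. Of the 1383 genes higher in acute than in moderate hypoxia, 925 (66.9%) had a control mean nearer to the acute than to the moderate mean, and of the 1388 lower genes 1032 (74.4%) did, against 61.1% of all tested genes. These are counts of levels, without a test, and they differ by gene group as given below.

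Oxygen-sensing hydroxylases led the genes of the HIF pathway that were higher in acute hypoxia. Of 20 tested genes of the HIF pathway, 8 (40%) were higher and 1 (5%) lower, beside 9.89% and 9.93% of all genes. The median log2 fold change was 0.15, against 0.003 over all genes. The 8 were called in each fit that left out 1 library. fih1 (ncbi_101268916), annotated as factor inhibiting HIF 1 alpha, had 34.1, 39.1 and 33.6 FPKM in acute hypoxia, against 7.54, 6.12 and 6.15 in moderate hypoxia (log2 fold change 2.35 ± 0.12, adjusted p = 0.000119). Control livers had 2.22, 2.05 and 2.31. Its lowest acute value was above the highest moderate value by more than 4 times, and moderate libraries lay above all control libraries. Both Egln3 genes, which encode a HIF prolyl hydroxylase that is itself a HIF target, were higher: ncbi_110497687 had 2.85, 3.05 and 3.85 FPKM in acute hypoxia, against 0.53, 0.618 and 0.931 in moderate hypoxia (log2 fold change 1.66 ± 0.16, adjusted p = 0.0011). The other Egln3 (ncbi_110505778) had 2.88, 2.48 and 2.98 FPKM in acute hypoxia, against 0.921, 1.13 and 0.717 in moderate hypoxia (log2 fold change 1.21 ± 0.14, adjusted p = 0.00191). Control livers stood at 0.299, 0.216 and 0.259. The remaining prolyl hydroxylases that were higher, with groups that did not overlap, were egln1 (ncbi_101268917, log2 fold change 1.01 ± 0.18, adjusted p = 0.00758), EGLN2 (ncbi_110507058, log2 fold change 0.84 ± 0.14, adjusted p = 0.00601) and a second copy of Egln1 (ncbi_110486061, log2 fold change 0.70 ± 0.14, adjusted p = 0.0131). cited2, whose protein competes with HIF for the coactivator p300, was higher in both copies (ncbi_110522239, log2 fold change 1.05 ± 0.15, adjusted p = 0.00329; ncbi_110529621, log2 fold change 0.54 ± 0.09, adjusted p = 0.00671). On the FPKM as deposited the call of the second cited2 copy was lost. In these cited2 copies the control mean was nearer to the acute mean, with 1.97, 2.18 and 1.94 for the first copy and 13.2, 14 and 12.4 for the second, while in the other 6 genes the control mean was nearer to the moderate mean.

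The subunits of the factor itself showed another pattern. arnt2 (ncbi_110506172), a partner of the HIF alpha subunit, was the 1 gene called lower, at 11.5, 13.2 and 12.3 FPKM in acute hypoxia, against 21.9, 20.5 and 15.7 in moderate hypoxia (log2 fold change -0.61 ± 0.14, adjusted p = 0.0173). Its adjusted p was 0.0552 without acute 1, 0.0634 without moderate 1 and 0.0559 without moderate 2. None of the 4 tested hif1a genes, the 2 EPAS1 genes, which encode HIF-2 alpha, the 2 arnt genes, the other arnt2 gene or the vhl gene passed the test; these are named after their values were seen. The most abundant hif1a (ncbi_100135944) had 10.9, 11.4 and 12.4 FPKM in acute hypoxia, against 10.5, 10.2 and 9.76 in moderate hypoxia (log2 fold change 0.18 ± 0.09, adjusted p = 0.218). Its acute libraries were all above its moderate ones, and its direction turned on the FPKM as deposited.

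Among 52 tested HIF targets from a general list, 17 were higher and 6 lower (median log2 fold change 0.11), against 12 higher and 11 lower on the FPKM as deposited. The shares were 32.7% higher and 11.5% lower, beside 9.89% and 9.93% of all genes, so the share lower was near that of all genes. The count lower was 2 without acute 1, 2 without moderate 1 and 3 without moderate 2. epo (ncbi_110531655), the hormone that drives red cell production, had 2.76, 3.67 and 3.83 FPKM in acute hypoxia, against 1.18, 1.34 and 1.06 in moderate hypoxia (log2 fold change 1.20 ± 0.14, adjusted p = 0.00195). Control livers were at 0.379, 0.406 and 0.409. ppp1r3cb (ncbi_110491403), which targets a phosphatase to glycogen, had 18.6, 20 and 19.7 FPKM in acute hypoxia, against 8.23, 7.97 and 8.49 in moderate hypoxia (log2 fold change 1.19 ± 0.09, adjusted p = 0.000411). ankrd37 (ncbi_110534293) had 1.64, 2.16 and 2.42 FPKM in acute hypoxia, against 0.756, 0.786 and 0.686 in moderate hypoxia (log2 fold change 1.04 ± 0.14, adjusted p = 0.00282). In these 3 genes no acute library overlapped a moderate one, and the moderate mean lay between the acute and the control mean. vegfaa (ncbi_110529696, log2 fold change 0.77 ± 0.11, adjusted p = 0.00299), the vascular growth factor, NDRG1 (ncbi_110496659, log2 fold change 0.81 ± 0.09, adjusted p = 0.00187), bnip3lb (ncbi_110523659, log2 fold change 0.78 ± 0.12, adjusted p = 0.00507), a receptor for the removal of mitochondria, and jmjd6 (ncbi_110486581, log2 fold change 0.70 ± 0.10, adjusted p = 0.00327) were also higher in every fit. Heme oxygenase, which breaks down heme, was called in both hmox genes: the first (ncbi_118936555) had 51.9, 44.7 and 40.3 FPKM in acute hypoxia, against 22.7, 29.7 and 19.4 in moderate hypoxia (log2 fold change 0.93 ± 0.16, adjusted p = 0.00716). Controls had 7.46, 5.61 and 8.36. The second hmox (ncbi_110485518) had 71.1, 62.5 and 47.4 FPKM in acute hypoxia, against 31.5, 44.6 and 33.8 in moderate hypoxia (log2 fold change 0.71 ± 0.18, adjusted p = 0.0261). That adjusted p became 0.0766 without acute 1, 0.0757 without acute 2, 0.0941 without moderate 1 and 0.0725 without moderate 3. Of the 17 genes that were higher, 15 had a control mean nearer to the moderate mean.

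Some targets went the other way, in a share near that of all genes. Of the 6 lower targets, 2 were called lower in every fit without 1 library. PLIN2 (ncbi_110531797), which coats lipid droplets, had 4.22, 3.73 and 3.24 FPKM in acute hypoxia, against 20.5, 20.6 and 20.8 in moderate hypoxia (log2 fold change -2.33 ± 0.11, adjusted p = 0.000119). Controls stood at 21.3, 30.4 and 14.6. All 3 moderate libraries stood close together and above every acute library by more than 4 times, and the control libraries were near them. A second PLIN2 (ncbi_110500648) had 11.3, 14.1 and 14.3 FPKM in acute hypoxia, against 20.3, 18.5 and 18 in moderate hypoxia (log2 fold change -0.51 ± 0.12, adjusted p = 0.0203). That adjusted p became 0.0556 without acute 1, 0.0743 without moderate 1 and 0.0509 without moderate 2. TFRC (ncbi_100653457), a gene of the transferrin receptor that takes up iron, had 1.43, 1.23 and 1.79 FPKM in acute hypoxia, against 3.44, 2.36 and 3.24 in moderate hypoxia (log2 fold change -0.82 ± 0.16, adjusted p = 0.0108). Levels of 1.55, 1.28 and 1.22 were measured in control livers. Other transferrin receptor genes overlapped between the groups. The more abundant tfr1a (ncbi_110509090) had 27.2, 26.2 and 39.7 FPKM in acute hypoxia, against 33.9, 38.7 and 30 in moderate hypoxia. tfr1b (ncbi_110535367) had 1.09, 1.14 and 1.74 FPKM in acute hypoxia, against 1.71, 1.33 and 1.57 in moderate hypoxia. angptl4 (ncbi_110508918), a secreted inhibitor of lipoprotein lipase, had 11.8, 13.5 and 12.5 FPKM in acute hypoxia, against 28.8, 16.4 and 26.8 in moderate hypoxia (log2 fold change -0.87 ± 0.19, adjusted p = 0.0185). Its adjusted p was 0.0559 without acute 1, 0.0666 without moderate 1 and 0.056 without moderate 3. Bulk liver cannot tell fewer cells of a type from less RNA per cell, here and in every group below.

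The glucose transporter glut1, named in the series design, lay below the filter. glut1a (ncbi_100135909) had 1.19, 1.46 and 1.28 FPKM in acute hypoxia, against 0.621, 0.546 and 0.747 in moderate hypoxia, and 0.297, 0.546 and 0.829 in control livers, and no acute library overlapped a moderate one. In a fit without the filter its log2 fold change was 0.70 ± 0.13 (SE) with a limma adjusted p of 0.028, and the exact two-sided permutation test gave p = 0.1, the smallest that 3 against 3 libraries allow. The call was lost on the FPKM as deposited (adjusted p = 0.0624) and without any 1 library (0.0745 to 0.111). A second gene, Slc2a1 (ncbi_110494474), had 0.645, 0.501 and 0.729 FPKM in acute hypoxia, against 0.296, 0.306 and 0.282 in moderate hypoxia, with a log2 fold change of 0.52 and an adjusted p of 0.0543 in the same fit. The other 3 glut1 genes were listed at 0 in all 9 libraries.

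Of 35 tested glycolysis genes 15 were higher and 3 lower in acute hypoxia and 17 were not called (median log2 fold change 0.33). The shares were 42.9% higher and 8.57% lower, beside 9.89% and 9.93% of all genes. On the FPKM as deposited 8 were higher and 5 lower. The count higher was 9 without moderate 1, and the count lower 1 without acute 2, 1 without acute 3, 1 without moderate 1 and 1 without moderate 2. pgam1b (ncbi_110493407), a phosphoglycerate mutase, had 11.6, 12.7 and 13.1 FPKM in acute hypoxia, against 4.62, 4.08 and 2.99 in moderate hypoxia (log2 fold change 1.58 ± 0.15, adjusted p = 0.00098). The triosephosphate isomerase gene tpi1b was higher in both copies: ncbi_110489325 had 65.5, 68 and 74.8 FPKM in acute hypoxia, against 28.2, 28.2 and 29.8 in moderate hypoxia (log2 fold change 1.26 ± 0.09, adjusted p = 0.000324), and ncbi_110517847 had 31.8, 38.3 and 28.8 FPKM in acute hypoxia, against 10.3, 11.6 and 14.2 in moderate hypoxia (log2 fold change 1.42 ± 0.15, adjusted p = 0.00126). Control livers were close to the moderate ones in these genes, at 3.29, 3.24 and 3.17 for pgam1b and 25, 24.8 and 25.5 for the first tpi1b, and the control mean was nearer to the moderate mean in 14 of the 15 genes. The payoff enzymes eno1a (ncbi_100499608, log2 fold change 0.68 ± 0.10, adjusted p = 0.00367), an enolase, and pgk1 (ncbi_110537531, log2 fold change 0.61 ± 0.10, adjusted p = 0.00495), a phosphoglycerate kinase, were higher by less and are named after their values were seen. The lower call of Pfkfb4 (ncbi_110527942), which makes an activator of glycolysis, was lost in several fits, with an adjusted p of 0.112 without acute 1, 0.122 without acute 2, 0.0621 without acute 3, 0.137 without moderate 1 and 0.122 without moderate 2. Of the 3 lower genes 1 was called lower in each fit without 1 library. Glucokinase, gk (ncbi_100135866), was lower in acute hypoxia, with a log2 fold change of -2.66 (limma adjusted p = 0.00311).

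In gluconeogenesis 3 of 13 tested genes were higher and 1 lower, beside 9.89% and 9.93% of all genes, against 1 higher and 4 lower on the FPKM as deposited; the count higher was 1 without acute 1, 0 without acute 2, 0 without moderate 1 and 1 without moderate 3. In glycogen metabolism 2 of 32 were higher and 1 lower, against 1 and 11 on the FPKM as deposited, and ppp1r3cb above was the 1 gene called in every fit without 1 library. Of 4 tested glucose transporter genes 1 was lower, slc2a12 (ncbi_110519899, log2 fold change -0.52 ± 0.10, adjusted p = 0.0117). G6PC (ncbi_110499065), glucose-6-phosphatase, had 37.9, 41.7 and 47.4 FPKM in acute hypoxia, against 57.7, 58 and 65.5 in moderate hypoxia (log2 fold change -0.51 ± 0.11, adjusted p = 0.0157). Control liver gave 77.4, 63.6 and 84.5. Its adjusted p was 0.0513 without acute 1. pck1 (ncbi_110493880), the cytosolic phosphoenolpyruvate carboxykinase, had 1.95, 2.46 and 3.74 FPKM in acute hypoxia, against 0.601, 1.61 and 0.964 in moderate hypoxia (log2 fold change 1.06 ± 0.26, adjusted p = 0.0265). Its adjusted p was 0.0609 without acute 2, 0.0654 without acute 3, 0.0863 without moderate 1 and 0.0675 without moderate 3.

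Nuclear genes of the respiratory chain were higher in acute hypoxia in 28 of 121 tested members and lower in 2 (median log2 fold change 0.24), but 6 higher and 13 lower were called on the FPKM as deposited and 16 higher and 1 lower after quantile normalization. Their shares were 23.1% and 1.65%, beside 9.89% and 9.93% of all genes. Among all genes at 20 to 100 scaled FPKM the share higher was 28%, and at 100 or more it was 39.3%. The part of the level of the genes in the respiratory chain count was not tested. The respiratory chain genes are short, with a median span of 4384 bp. After adjustment for span 18 were higher and 3 lower, and the count higher was 13 without acute 1, 13 without moderate 1, 18 without moderate 2 and 16 without moderate 3. COX6B1 (ncbi_110491567), a subunit of cytochrome c oxidase, had 114, 149 and 118 FPKM in acute hypoxia, against 59, 54.2 and 69 in moderate hypoxia (log2 fold change 1.05 ± 0.13, adjusted p = 0.0024). Control livers had 82, 85.1 and 66.7. The subunits COX5B (ncbi_110526243, log2 fold change 0.89 ± 0.15, adjusted p = 0.00591) and COX6C (ncbi_110527679, log2 fold change 0.61 ± 0.10, adjusted p = 0.00556), of the same oxidase were higher too, with control values of 19.6, 25.6 and 17.4 for COX5B and of 46.3, 50.4 and 43.1 for COX6C. The control mean was nearer to the acute mean in 25 of the 28 genes. Of 13 genes of the mitochondrial genome 7 were called higher and 0 lower by limma (0 lower at an unadjusted p under 0.05), with a median log2 fold change of 0.62. The count higher was 4 without acute 1, 4 without moderate 2 and 4 without moderate 3. It was 3 on the FPKM as deposited, 3 after quantile normalization and 2 after adjustment for span. ND3 (ncbi_807972), a subunit of complex I, had 51.7, 33.8 and 29.7 FPKM in acute hypoxia, against 15.3, 12.9 and 13.1 in moderate hypoxia (log2 fold change 1.41 ± 0.19, adjusted p = 0.00277). In control livers it stood at 45.3, 44.3 and 55.7. Acute 1 was the highest of the acute libraries, and the control libraries lay near or above them.

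Pyruvate dehydrogenase and the tricarboxylic acid cycle had 8 of 61 genes higher and 5 lower, but 1 higher and 13 lower on the FPKM as deposited. The shares of 13.1% higher and 8.2% lower were near the 9.89% and 9.93% of all genes. The count higher was 3 without acute 1, 4 without acute 2, 5 without acute 3, 3 without moderate 1, 3 without moderate 2 and 5 without moderate 3, and the count lower 3 without acute 1, 1 without acute 2, 2 without acute 3, 1 without moderate 1, 2 without moderate 2 and 2 without moderate 3. Pdk2 (ncbi_110486156), a kinase that switches pyruvate dehydrogenase off, had 18.3, 22.3 and 15.1 FPKM in acute hypoxia, against 7.65, 8.1 and 11.9 in moderate hypoxia (log2 fold change 0.98 ± 0.19, adjusted p = 0.0104). The control level was 15.1, 12 and 15.3. ogdh (ncbi_110509550), a subunit of 2-oxoglutarate dehydrogenase, had 14.1, 13.3 and 14.6 FPKM in acute hypoxia, against 21.5, 20.2 and 20.2 in moderate hypoxia (log2 fold change -0.55 ± 0.09, adjusted p = 0.00601). Controls had 13.1, 12.9 and 14.6. The 2 hypoxia groups did not overlap in either gene. The control libraries of ogdh lay near the acute ones, and the control mean of Pdk2 lay between the 2 means.

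**Figure D3:**
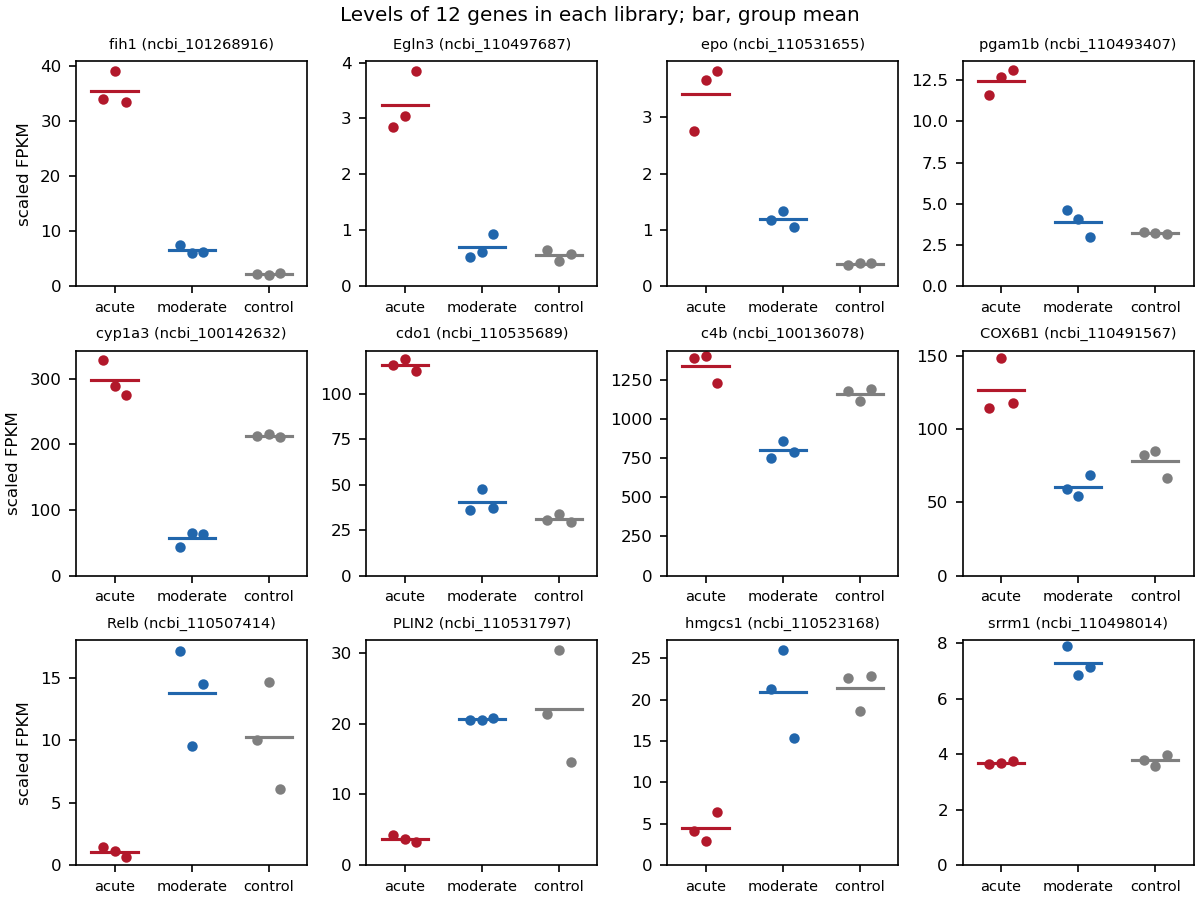
Scaled FPKM of 12 genes in each library, with 3 points for acute hypoxia (red), moderate hypoxia (blue) and control livers (grey) and a bar at the group mean; each y axis starts at 0. fih1, Egln3, epo, pgam1b, cdo1 and COX6B1 are highest in acute hypoxia, and in fih1, epo and cdo1 all moderate libraries also lie above all control ones. cyp1a3 and c4b are low in moderate hypoxia, Relb, PLIN2 and hmgcs1 are low in acute hypoxia, and srrm1 is high in moderate hypoxia.

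Of 38 tested genes of cholesterol synthesis 14 were lower and 0 higher in acute hypoxia by limma and 24 were not called, with a median log2 fold change of -0.45 and 25 lower on the FPKM as deposited; at an unadjusted p under 0.05 22 were lower and 1 higher, the higher one being ebpl (ncbi_110528760, log2 fold change 0.35 ± 0.11, adjusted p = 0.0502), named after its values were seen. The count lower was 9 without acute 1, 9 without acute 2, 8 without moderate 1 and 7 without moderate 2, and 1 gene was called higher without acute 3. hmgcs1 (ncbi_110523168), which makes the precursor of mevalonate, had 4.12, 2.88 and 6.38 FPKM in acute hypoxia, against 21.3, 26 and 15.4 in moderate hypoxia (log2 fold change -2.14 ± 0.27, adjusted p = 0.00234). In controls it was 22.7, 18.6 and 22.8. Acute 2 was the lowest library and moderate 2 the highest. srebf2, the transcription factor that drives the pathway, was lower in both copies, with 2.64, 2.74 and 3.89 FPKM in acute hypoxia, against 7.96, 7.31 and 5.45 in moderate hypoxia for ncbi_110486444 (log2 fold change -1.05 ± 0.17, adjusted p = 0.00608) and 7.24, 5.96 and 8.82 FPKM in acute hypoxia, against 14.5, 16.6 and 12.6 in moderate hypoxia for ncbi_110538342 (log2 fold change -0.95 ± 0.16, adjusted p = 0.00582). hmgcra (ncbi_100135848), the rate-limiting reductase, is named after its values were seen and had 19.8, 9.81 and 25.4 FPKM in acute hypoxia, against 44.3, 57.3 and 33.1 in moderate hypoxia (log2 fold change -1.33 ± 0.32, adjusted p = 0.0242). That adjusted p became 0.0786 without moderate 1 and 0.073 without moderate 2. In 12 of the 14 lower genes the control mean was nearer to the moderate mean.

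Fatty acid synthesis divided, with 10 of 51 tested genes higher and 10 lower, and 6 higher and 22 lower on the FPKM as deposited. Its share was 19.6% in each direction, beside 9.89% higher and 9.93% lower of all genes. The count higher was 6 without moderate 1 and 6 without moderate 3, and the count lower 6 without acute 2, 5 without moderate 1 and 6 without moderate 2. Lipid droplet and lipolysis genes had 1 of 22 (4.55%) higher and 5 (22.7%) lower (1 and 9 on the FPKM as deposited), with 2 without acute 1, 1 without moderate 1, 2 without moderate 2 and 3 without moderate 3 lower. The desaturase scdb (ncbi_110530485) had 36.6, 57.8 and 45.2 FPKM in acute hypoxia, against 14.4, 19.5 and 12.9 in moderate hypoxia (log2 fold change 1.54 ± 0.19, adjusted p = 0.00238). Levels of 20.1, 18 and 22 were measured in control livers. dgat2 (ncbi_110537459), which completes triglycerides, had 12.7, 15 and 16.8 FPKM in acute hypoxia, against 5.6, 6.36 and 6.51 in moderate hypoxia (log2 fold change 1.20 ± 0.12, adjusted p = 0.00129), and the elongase Elovl2 (ncbi_101268971) was higher too (log2 fold change 0.83 ± 0.09, adjusted p = 0.0015). The acetyl-CoA carboxylase acaca (ncbi_110537238), which starts the pathway, was lower. It had 1.15, 1.11 and 1.59 FPKM in acute hypoxia, against 2.64, 2.97 and 2.21 in moderate hypoxia (log2 fold change -0.80 ± 0.15, adjusted p = 0.00857). Another acetyl-CoA carboxylase gene, ACACB (ncbi_110525352), was lower too, with a log2 fold change of -0.76 ± 0.12 (SE). G0s2 (ncbi_110494987), an inhibitor of the main triglyceride lipase, had 2.94, 2.65 and 4.93 FPKM in acute hypoxia, against 1.37, 0.947 and 1.08 in moderate hypoxia (log2 fold change 1.26 ± 0.21, adjusted p = 0.00582). In fatty acid oxidation 6 of 52 genes were higher and 3 lower (1 and 11 on the FPKM as deposited), the count higher being 2 without acute 1, 3 without acute 2, 2 without moderate 1 and 2 without moderate 3. The shares of 11.5% higher and 5.77% lower were near or under the 9.89% and 9.93% of all genes. CPT1A (ncbi_100329197), which carries fatty acids into mitochondria, had 0.771, 0.961 and 0.794 FPKM in acute hypoxia, against 2.39, 2.9 and 3.43 in moderate hypoxia (log2 fold change -1.33 ± 0.14, adjusted p = 0.00132). The control libraries held 3.38, 3.77 and 2.41. The carnitine carrier SLC25A20 (ncbi_110532875) had 2.38, 2.21 and 2.14 FPKM in acute hypoxia, against 4.43, 4.46 and 4.07 in moderate hypoxia (log2 fold change -0.81 ± 0.10, adjusted p = 0.00221). Control liver gave 1.87, 1.8 and 2.26. In both genes all acute libraries were below all moderate ones, and control livers stood near moderate hypoxia for CPT1A and near acute hypoxia for SLC25A20.

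Apolipoproteins and their partners had 12 of 39 genes higher and 8 lower, but 5 higher and 11 lower on the FPKM as deposited and 8 and 11 after quantile normalization. The shares were 30.8% higher and 20.5% lower, beside 9.89% and 9.93% of all genes. The count higher was 7 without acute 1, 6 without acute 2 and 6 without moderate 1, and the count lower 5 without acute 1, 5 without acute 2, 5 without moderate 2 and 5 without moderate 3. A gene annotated as apolipoprotein A-IV (ncbi_110523359) had 1.8, 0.737 and 0.895 FPKM in acute hypoxia, against 14.4, 10.6 and 7.84 in moderate hypoxia (log2 fold change -2.81 ± 0.27, adjusted p = 0.00098). Control livers had 52.2, 61.9 and 40.1. A member of the apolipoprotein A1/A4/E family (ncbi_110507365) had 59.9, 44.8 and 40.7 FPKM in acute hypoxia, against 107, 85.2 and 144 in moderate hypoxia (log2 fold change -1.19 ± 0.20, adjusted p = 0.00685). Control livers stood at 177, 176 and 172. Both were highest in control livers, and acute libraries were below all others. MTTP (ncbi_110497503), which loads lipid onto apolipoprotein B, was lower (log2 fold change -0.78 ± 0.11, adjusted p = 0.00299), while 2 genes annotated as apolipoprotein C-I were higher (ncbi_110510206, log2 fold change 0.69 ± 0.09, adjusted p = 0.0024; ncbi_110537939, log2 fold change 0.98 ± 0.11, adjusted p = 0.0015).

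Of 96 tested genes of bile acid and drug metabolism 29 were higher and 3 lower in acute hypoxia and 64 were not called (median log2 fold change 0.22). The count higher was 19 without acute 2, the count lower 1 without moderate 1 and 1 without moderate 2, and 18 were higher and 12 lower on the FPKM as deposited. The cytochromes cyp1a3 and cyp1a1 are classic targets of the aryl hydrocarbon receptor. cyp1a3 (ncbi_100142632) had 328, 289 and 276 FPKM in acute hypoxia, against 43.3, 65 and 62.8 in moderate hypoxia (log2 fold change 2.39 ± 0.16, adjusted p = 0.000283). Control livers were at 212, 216 and 210.3. cyp1a1 (ncbi_110526570) had 409.7, 465 and 396 FPKM in acute hypoxia, against 86.6, 101 and 112 in moderate hypoxia (log2 fold change 2.08 ± 0.12, adjusted p = 0.000196). Controls had 369, 363 and 344. In both genes the moderate libraries were the lowest of the 3 groups and control livers lay between. Reads may be shared between these near copies. A glucuronosyltransferase, ugt3 (ncbi_118943577), had 42.6, 56.1 and 44.1 FPKM in acute hypoxia, against 16.5, 18.8 and 16.5 in moderate hypoxia (log2 fold change 1.43 ± 0.13, adjusted p = 0.000811). Controls stood at 43.3, 44.8 and 45.2. CYP7A1 (ncbi_110508825), the rate-limiting enzyme of bile acid synthesis and named after its values were seen, had 25.4, 30.8 and 37.7 FPKM in acute hypoxia, against 8.33, 10.9 and 9.4 in moderate hypoxia (log2 fold change 1.66 ± 0.16, adjusted p = 0.00098). Levels of 20.5, 16.6 and 22.4 were measured in control livers. Cyp27a1 (ncbi_110501573), of the alternative bile acid route, went the other way, at 0.522, 0.457 and 0.544 FPKM in acute hypoxia, against 2.14, 1.92 and 2.19 in moderate hypoxia (log2 fold change -1.36 ± 0.12, adjusted p = 0.000781).

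Amino acid breakdown was higher in 36 of 94 tested genes and lower in 6 (median log2 fold change 0.27), with 15 higher and 15 lower on the FPKM as deposited; the count higher was 21 without acute 2 and 20 without moderate 1, and the count lower 3 without acute 1, 3 without acute 2, 0 without moderate 1 and 1 without moderate 2. cdo1 (ncbi_110535689), the oxygen-using enzyme that commits cysteine to breakdown, had 116, 119 and 113 FPKM in acute hypoxia, against 36.1, 47.8 and 37.1 in moderate hypoxia (log2 fold change 1.52 ± 0.12, adjusted p = 0.00044). Control libraries had 30.6, 33.8 and 29.5. ARG1 (ncbi_110499023), arginase, had 32.8, 39.3 and 30.7 FPKM in acute hypoxia, against 16.3, 19.1 and 17.3 in moderate hypoxia (log2 fold change 0.94 ± 0.12, adjusted p = 0.0024), and aldh7a1 (ncbi_110523197), of lysine breakdown, was higher as well (log2 fold change 0.68 ± 0.09, adjusted p = 0.00292). The moderate libraries of these 3 genes were all below the acute ones. Genes that answer to atf4, the transcription factor of amino acid shortage, were called lower more often than higher: 11 of 28 tested members were lower and 4 higher (median -0.36), against 17 and 3 on the FPKM as deposited; the count lower was 7 without moderate 1. chac1 (ncbi_110522620), which degrades glutathione, had 5.64, 6.29 and 7.67 FPKM in acute hypoxia, against 23, 27.9 and 22 in moderate hypoxia (log2 fold change -1.82 ± 0.14, adjusted p = 0.000419). Control liver gave 21.1, 14.7 and 27.2. SLC3A2 (ncbi_110509955), the heavy chain of amino acid exchangers, had 1.75, 1.46 and 2.21 FPKM in acute hypoxia, against 5.46, 5.19 and 4.31 in moderate hypoxia (log2 fold change -1.26 ± 0.15, adjusted p = 0.00195). Members that were higher include nupr1b (ncbi_110537923), a stress-responsive chromatin protein, at 446, 412 and 326 FPKM in acute hypoxia, against 102, 131 and 180.1 in moderate hypoxia (log2 fold change 1.54 ± 0.20, adjusted p = 0.00252). Control livers had 193, 210.2 and 169. slc38a2 (ncbi_110490511), a neutral amino acid carrier, had 9.79, 11.9 and 12 FPKM in acute hypoxia, against 5.45, 5.89 and 4.92 in moderate hypoxia (log2 fold change 0.98 ± 0.12, adjusted p = 0.00215).

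The list of endoplasmic reticulum chaperones and unfolded protein response genes had 8 of 86 higher and 7 lower, near the share over all genes. It had 3 higher and 32 lower on the FPKM as deposited. The count higher was 5 without acute 1, 4 without acute 2, 5 without acute 3, 4 without moderate 1, 4 without moderate 2 and 4 without moderate 3, and the count lower 4 without acute 1, 4 without acute 2, 3 without moderate 1, 4 without moderate 2 and 15 without moderate 3. An assembled locus that the authors' deposited table names X-box-binding protein 1 of Salmo salar, a transcription factor of the unfolded protein response, had 109, 146 and 178 FPKM in acute hypoxia, against 295, 314 and 313 in moderate hypoxia (log2 fold change -1.11 ± 0.16, adjusted p = 0.00337). atf6 (ncbi_110524848), another such factor, had 3.73, 3.83 and 4.45 FPKM in acute hypoxia, against 7.82, 7.84 and 6.68 in moderate hypoxia (log2 fold change -0.82 ± 0.11, adjusted p = 0.00294). In control livers it stood at 4.9, 4.59 and 5.72. Heat shock proteins had 6 of 58 genes higher and 2 lower (3 and 5 on the FPKM as deposited, and 3 higher without acute 1). The shares of 10.3% higher and 3.45% lower were near or under the 9.89% and 9.93% of all genes. The higher genes included both STIP1 copies, which link the chaperones of the HSP70 and HSP90 families, with log2 fold changes of 0.82 ± 0.12 and 0.86 ± 0.17 (SE).

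**Figure D4:**
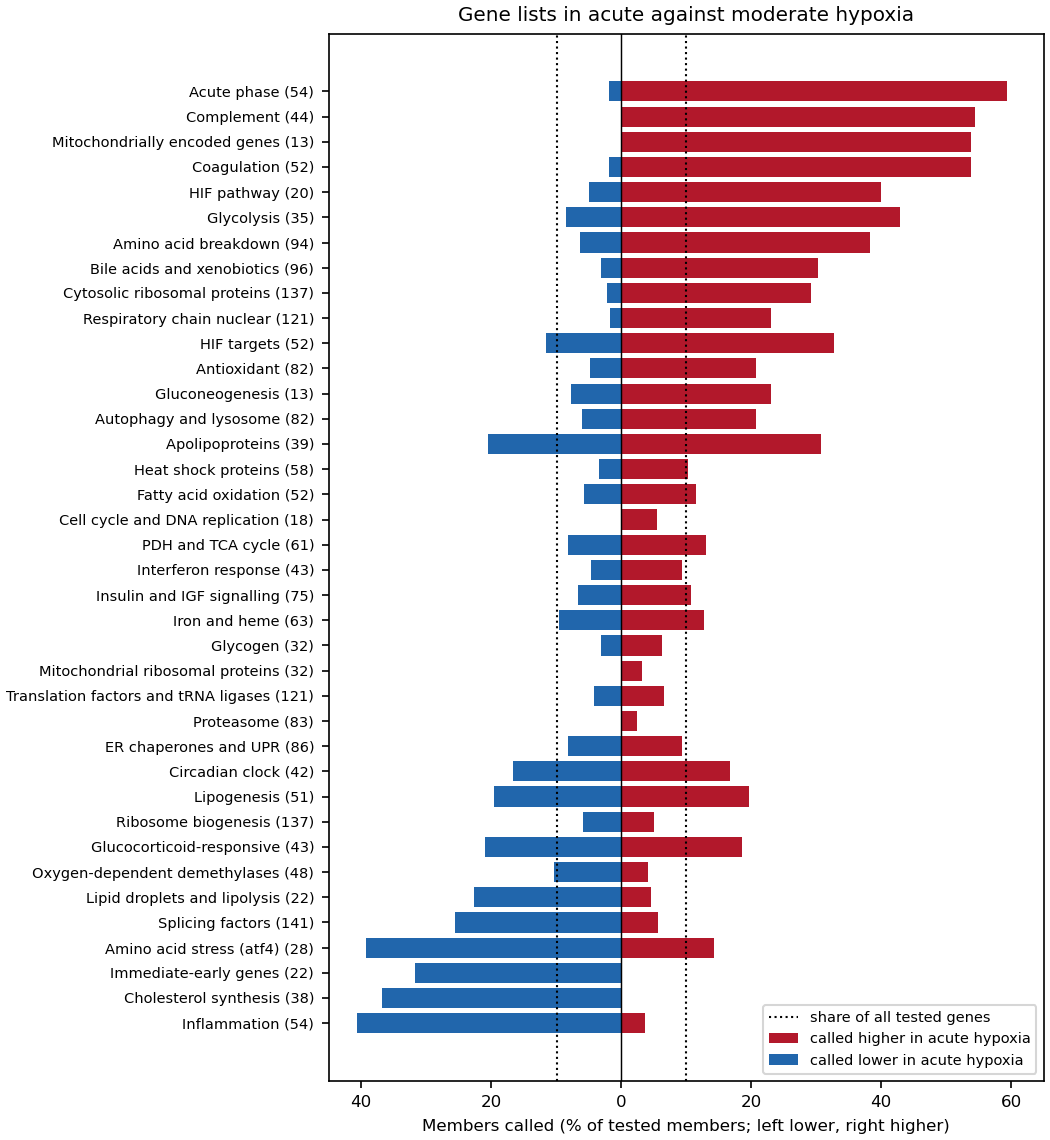
Share of the tested members of each gene list called higher (red, to the right) or lower (blue, to the left) in acute hypoxia; the number of tested members stands beside each name, and the dotted lines mark the shares of all genes, 9.89% higher and 9.93% lower. On the FPKM as deposited many lists turn to more lower than higher calls, among them cytosolic ribosomal proteins (9 and 18) and nuclear respiratory chain genes (6 and 13), while acute phase, complement, coagulation and glycolysis genes keep more higher calls.

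Genes of secreted plasma proteins were called higher in acute hypoxia more often than lower. Acute phase proteins had 32 of 54 tested genes higher and 1 lower (median log2 fold change 0.50), complement 24 of 44 higher and 0 lower by limma (median 0.39), and coagulation 28 of 52 higher and 1 lower (median 0.38). At an unadjusted p under 0.05, 0 complement genes were lower. These lists share members. Their shares higher were 59.3%, 54.5% and 53.8%, beside 9.89% of all tested genes. Among all genes with a mean of 100 scaled FPKM or more the share higher was 39.3%. The part of the level of the genes in these shares was not tested. The counts higher were 18, 12 and 13 on the FPKM as deposited and 16, 14 and 13 after quantile normalization, and 1 complement gene was called lower under each of these. The coagulation count higher was 18 without moderate 1. The acute phase call lower was lost (0 without acute 1, 0 without moderate 1, 0 without moderate 2 and 0 without moderate 3), as was the coagulation one (0 without acute 1, 0 without acute 2, 0 without moderate 1, 0 without moderate 2 and 0 without moderate 3). c4b (ncbi_100136078), a complement component, had 1386, 1402 and 1228 FPKM in acute hypoxia, against 750.1, 856 and 789 in moderate hypoxia (log2 fold change 0.74 ± 0.09, adjusted p = 0.00218). The control level was 1174, 1111 and 1192. cfi (ncbi_100653483), the protease that inactivates complement, had 1042, 1006 and 892 FPKM in acute hypoxia, against 516, 570.2 and 523 in moderate hypoxia (log2 fold change 0.87 ± 0.09, adjusted p = 0.00129). cp (ncbi_110524827), the copper carrier ceruloplasmin, had 1393, 1443 and 1304 FPKM in acute hypoxia, against 794, 898 and 832 in moderate hypoxia (log2 fold change 0.71 ± 0.08, adjusted p = 0.00201). The clotting inhibitor serpinc1 (ncbi_110524099), antithrombin, had 963, 899 and 965 FPKM in acute hypoxia, against 529, 609 and 602 in moderate hypoxia (log2 fold change 0.70 ± 0.09, adjusted p = 0.00231). Controls had 821, 759 and 850.0. In all 4 genes every acute library was above every moderate one and the control mean lay between the 2 means. The control mean was nearer to the acute mean in 29 of the 32, 22 of the 24 and 26 of the 28 genes.

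Of 35 tested hepatocyte markers 19 were higher and 0 lower by limma, with 2 lower at an unadjusted p under 0.05 (median 0.41), against 10 higher and 2 lower on the FPKM as deposited and 6 and 3 after quantile normalization, and 1 of the 40 matched markers, rbp4l (ncbi_110537123), was at 0 in all 6 libraries. Their summed level was 90700 to 98100 scaled FPKM in acute, 68400 to 79500 in moderate and 81200 to 91700 in control livers, so the defining markers of liver were present in every library. The marker list itself holds plasma protein genes, among them serpinc1 given above, prothrombin, plasminogen and fibrinogens. Its counts are therefore not independent of those of the plasma protein lists. Not all of its plasma protein genes were higher in acute hypoxia. The haptoglobin-like gene HP (ncbi_118936659) had 2823, 3801 and 3472 FPKM in acute hypoxia, against 4213, 4889 and 4119 in moderate hypoxia, without a call. A second HP (ncbi_110506425), the transferrin gene tfa (ncbi_100136298) and an albumin gene, alb1 (ncbi_110531464), overlapped between the groups. The part of the shift in hepatocyte markers in the plasma protein results was not tested.

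Of 54 tested genes of inflammatory signalling 22 were lower and 2 higher in acute hypoxia and 30 were not called (median log2 fold change -0.26); 28 were lower and 1 higher on the FPKM as deposited, and 14 were lower in each fit without 1 library. The lower genes included subunits and inhibitors of the transcription factor NF-kappa-B. Relb (ncbi_110507414), a subunit of the factor, had 1.47, 1.12 and 0.655 FPKM in acute hypoxia, against 17.2, 9.52 and 14.5 in moderate hypoxia (log2 fold change -3.16 ± 0.24, adjusted p = 0.00044). In controls it was 10, 14.6 and 6.13. RIPK2 (ncbi_110526239), a kinase that relays signals from bacterial sensors, had 0.702, 0.411 and 0.825 FPKM in acute hypoxia, against 8.22, 5.23 and 7.62 in moderate hypoxia (log2 fold change -2.71 ± 0.19, adjusted p = 0.000324). Levels of 5.02, 7.66 and 2.81 were measured in control livers. NFKBIA (ncbi_110522049), the inhibitor that the factor itself induces, had 3.23, 3.31 and 2.91 FPKM in acute hypoxia, against 17, 7.3 and 11.3 in moderate hypoxia (log2 fold change -1.68 ± 0.25, adjusted p = 0.00397). Control libraries had 13, 16.2 and 8.67. No acute library reached the lowest moderate or control library in these 3 genes. NFKBIE (ncbi_110522047), a further inhibitor, was lower (log2 fold change -1.50 ± 0.13, adjusted p = 0.00083), as was a gene annotated as the chemokine CCL19 (ncbi_110523665), named after its values were seen, at 2, 1.85 and 3.7 FPKM in acute hypoxia, against 12.3, 12.6 and 12.1 in moderate hypoxia (log2 fold change -2.14 ± 0.20, adjusted p = 0.00098). The 2 higher genes, Cebpd (ncbi_100301812) and CCL24 (ncbi_110516630), annotated as chemokine CCL13, lost their calls in part of the fits, the first with an adjusted p of 0.103 without acute 2, 0.0917 without acute 3, 0.122 without moderate 1 and 0.093 without moderate 2 and the second of 0.0579 without acute 1, 0.0715 without acute 3, 0.141 without moderate 1 and 0.103 without moderate 3. The control mean was nearer to the moderate mean in 14 of the 22 lower genes. Immediate-early genes, switched on within minutes of a stimulus, were lower in 7 of 22 tested members and higher in 0 by limma (0 at an unadjusted p under 0.05), with 1 higher without acute 1; the count lower was 4 without acute 2 and 4 without moderate 1, and 13 on the FPKM as deposited. JUN (ncbi_110521616) had 1.27, 1.27 and 0.919 FPKM in acute hypoxia, against 2.9, 2.67 and 2.4 in moderate hypoxia (log2 fold change -0.94 ± 0.13, adjusted p = 0.0031). Control liver gave 3.35, 2.69 and 2.36. junb (ncbi_110538479) was lower by less (log2 fold change -0.57 ± 0.12, adjusted p = 0.0131).

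Genes that respond to glucocorticoids divided, with 8 of 43 higher and 9 lower, and 7 higher and 15 lower on the FPKM as deposited. The shares were 18.6% higher and 20.9% lower, beside 9.89% and 9.93% of all genes. The count higher was 4 without moderate 1. sgk1 (ncbi_110529254), a kinase, had 12.9, 17.4 and 17.1 FPKM in acute hypoxia, against 3.61, 4.26 and 3.72 in moderate hypoxia (log2 fold change 1.89 ± 0.14, adjusted p = 0.000324). Control livers had 5.23, 3.52 and 6.63. KLF15 (ncbi_110528509), a transcription factor of fasting metabolism, had 2.06, 2.88 and 2.91 FPKM in acute hypoxia, against 0.733, 1.02 and 0.566 in moderate hypoxia (log2 fold change 1.30 ± 0.17, adjusted p = 0.00258). fkbp5 (ncbi_110528325), named after its values were seen, encodes a partner of the receptor and had 8.66, 4.49 and 4.22 FPKM in acute hypoxia, against 1.62, 2.53 and 2.52 in moderate hypoxia (log2 fold change 1.16 ± 0.26, adjusted p = 0.0179). Control livers stood at 0.74, 0.709 and 0.752. The adjusted p of fkbp5 became 0.0686 without moderate 1. Among the lower genes were period genes, repressors of the circadian clock: per1b (ncbi_100135905) had 1.31, 1.86 and 1.9 FPKM in acute hypoxia, against 3.66, 3.56 and 3.7 in moderate hypoxia (log2 fold change -0.93 ± 0.13, adjusted p = 0.00323). Control livers were at 2.09, 1.87 and 2.64. Per1 (ncbi_110509930) had a log2 fold change of -0.77 ± 0.12 (SE). Control livers were near the acute ones in per1b. Clock genes had 7 of 42 higher and 7 lower (3 and 13 on the FPKM as deposited), with 4 without acute 1, 3 without acute 2 and 3 without moderate 2 higher and 4 without acute 3, 2 without moderate 1 and 3 without moderate 2 lower. Their share was 16.7% in each direction, beside 9.89% and 9.93% of all genes, and 3 higher and 2 lower calls were made in every fit without 1 library. The clock factor HLF (ncbi_110538567) was higher, at 6.76, 7.32 and 7.32 FPKM in acute hypoxia, against 4.06, 3.85 and 3.25 in moderate hypoxia (log2 fold change 0.86 ± 0.11, adjusted p = 0.0024). In insulin signalling foxo1a (ncbi_110490984), a transcription factor that insulin switches off, had 7.2, 7.57 and 8.12 FPKM in acute hypoxia, against 18.5, 14.5 and 16.1 in moderate hypoxia (log2 fold change -1.05 ± 0.11, adjusted p = 0.00156). Controls had 6.88, 5.07 and 6.64. PIK3R1 (ncbi_110509692), the regulatory subunit of phosphatidylinositol 3-kinase, had 16.4, 14.7 and 18.7 FPKM in acute hypoxia, against 6.98, 8.04 and 8.28 in moderate hypoxia (log2 fold change 1.05 ± 0.12, adjusted p = 0.0019).

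Of 141 tested splicing factors 36 were lower and 8 higher in acute hypoxia and 97 were not called, with a median log2 fold change of -0.10 (2 higher and 60 lower on the FPKM as deposited); the count lower was 22 without acute 2 and 21 without moderate 1, the count higher 2 without acute 1, 3 without acute 2, 4 without acute 3, 4 without moderate 2 and 2 without moderate 3, and 41 lower and 3 higher were called after adjustment for span. srrm1 (ncbi_110498014), a coactivator of splicing, had 3.62, 3.68 and 3.74 FPKM in acute hypoxia, against 7.88, 6.86 and 7.13 in moderate hypoxia (log2 fold change -0.90 ± 0.10, adjusted p = 0.00155). Controls stood at 3.79, 3.57 and 3.95. RBM39 (ncbi_110531957) had 1.32, 1.48 and 1.35 FPKM in acute hypoxia, against 3.72, 3.34 and 3.49 in moderate hypoxia (log2 fold change -1.09 ± 0.10, adjusted p = 0.00098). Levels of 1.51, 1.74 and 1.3 were measured in control livers. The splicing kinase Clk2 (ncbi_110496023) had 1.11, 1.06 and 1.14 FPKM in acute hypoxia, against 2.5, 3.17 and 3.27 in moderate hypoxia (log2 fold change -1.11 ± 0.12, adjusted p = 0.00157). The control libraries held 1.58, 1.69 and 1.79. In these 3 genes moderate hypoxia stood above both other groups, and over the 36 lower genes the control mean was nearer to the acute mean in 29. The shares of splicing factors were 25.5% lower and 5.67% higher, beside 9.93% and 9.89% of all genes.

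Cytosolic ribosomal proteins were higher in 40 of 137 tested genes and lower in 3 after median-of-ratios scaling, but 9 were higher and 18 lower on the FPKM as deposited and 10 higher and 15 lower after quantile normalization, so their direction as a group turns with the scaling. The count higher was 22 without acute 1, 24 without acute 2, 26 without moderate 1 and 23 without moderate 3, and 25 after adjustment for span. rpl24 (ncbi_110520573) had 134, 103 and 114 FPKM in acute hypoxia, against 64.9, 56.1 and 54 in moderate hypoxia (log2 fold change 0.99 ± 0.12, adjusted p = 0.00225). Control liver gave 130.3, 162 and 129. rps29 (ncbi_110529849) had 12.7, 12.4 and 11 FPKM in acute hypoxia, against 5.6, 5.63 and 4.06 in moderate hypoxia (log2 fold change 1.17 ± 0.14, adjusted p = 0.00199). Control livers had 16.2, 14.4 and 18.1. Both kept their call under every scaling, and in all 40 higher genes the control mean was nearer to the acute mean. DKC1, a core protein of the particle that modifies ribosomal RNA, was higher in both copies, with 64.9, 48.2 and 47.5 FPKM in acute hypoxia, against 21.8, 17.7 and 18.2 in moderate hypoxia for ncbi_110509933 (log2 fold change 1.44 ± 0.14, adjusted p = 0.00114) and a log2 fold change of 1.40 ± 0.15 (SE) for ncbi_110533950; control livers had 57.6, 62.7 and 62.9 of the first. Ribosome biogenesis as a whole (7 higher and 8 lower of 137), translation factors (8 and 5 of 121), the proteasome (2 and 0 of 83) and mitochondrial ribosomal proteins (1 and 0 of 32) stand beside 19.8% of all genes called in either direction; these differences were not tested, and on the FPKM as deposited more of each were lower than higher (26, 19, 11 and 2 lower). Without 1 library these counts were at most 6 higher and 10 lower in any of the 4 lists.

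Autophagy and lysosome genes were higher in 17 of 82 tested members and lower in 5, but 7 higher and 13 lower on the FPKM as deposited. The shares were 20.7% higher and 6.1% lower, beside 9.89% and 9.93% of all genes. The count higher was 9 without acute 2, 9 without moderate 1, 11 without moderate 2 and 11 without moderate 3. The receptor for cargo and the proteins that bind it moved in opposite directions. Sqstm1 (ncbi_110488911), the receptor p62, had 28, 25.7 and 28.1 FPKM in acute hypoxia, against 89.9, 76.5 and 94.2 in moderate hypoxia (log2 fold change -1.65 ± 0.11, adjusted p = 0.000283). In control livers it stood at 74.4, 93.4 and 48. A second copy was lower too (ncbi_110505107, log2 fold change -0.97 ± 0.15, adjusted p = 0.00419). The membrane-conjugated proteins map1lc3a (ncbi_110527665), at 16.1, 16.7 and 15.1 FPKM in acute hypoxia, against 8.39, 9.23 and 8.69 in moderate hypoxia (log2 fold change 0.83 ± 0.09, adjusted p = 0.00179), and GABARAP (ncbi_110531818, log2 fold change 0.92 ± 0.12, adjusted p = 0.0024) were higher. Antioxidant genes were higher in 17 of 82 (20.7%) and lower in 4 (4.88%), against 6 and 12 on the FPKM as deposited. The count higher was 10 without acute 2 and 8 without moderate 1. Nqo1 (ncbi_110519426), a quinone reductase, had 9.67, 14 and 16.4 FPKM in acute hypoxia, against 5.22, 5.11 and 4.8 in moderate hypoxia (log2 fold change 1.29 ± 0.17, adjusted p = 0.00267). The control level was 13.5, 13.3 and 11.8. sod1 (ncbi_100135992), superoxide dismutase, had 86.3, 77.4 and 87.3 FPKM in acute hypoxia, against 54.8, 50 and 55.8 in moderate hypoxia (log2 fold change 0.64 ± 0.09, adjusted p = 0.00378). Controls had 85.3, 80.5 and 80.3. In both genes the control libraries were near the acute ones and above all moderate ones.

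Iron and heme genes had 8 of 63 higher and 6 lower (2 higher and 17 lower on the FPKM as deposited), the count higher being 4 without acute 2, 4 without moderate 1 and 5 without moderate 3. The shares of 12.7% higher and 9.52% lower were near the 9.89% and 9.93% of all genes. STEAP4 (ncbi_100136336), a metal reductase, had 21.6, 30.2 and 44.9 FPKM in acute hypoxia, against 124, 128 and 103 in moderate hypoxia (log2 fold change -1.91 ± 0.23, adjusted p = 0.00218). In controls it was 81.5, 93.5 and 70.5. leap-2b (ncbi_100136189), whose product is an antimicrobial peptide, had 3.71, 2.25 and 4.96 FPKM in acute hypoxia, against 12.7, 15.5 and 12.8 in moderate hypoxia (log2 fold change -1.82 ± 0.23, adjusted p = 0.00229). Levels of 26.7, 28.1 and 22.7 were measured in control livers. cpox (ncbi_110534779), an enzyme of heme synthesis that uses oxygen, had 6.7, 6.91 and 7.06 FPKM in acute hypoxia, against 3.84, 3.07 and 3.7 in moderate hypoxia (log2 fold change 0.88 ± 0.11, adjusted p = 0.00231). Control libraries had 2.85, 3.01 and 2.74. A ferritin subunit, FTH (ncbi_110537947), was higher (log2 fold change 0.78 ± 0.14, adjusted p = 0.00731). All 4 genes had groups that did not overlap. Demethylases that need oxygen had 2 of 48 genes higher and 5 lower (1 and 17 on the FPKM as deposited), with 3 without acute 1, 3 without acute 2, 3 without acute 3, 1 without moderate 1, 1 without moderate 2 and 2 without moderate 3 lower. The shares of 4.17% higher and 10.4% lower were under or near those of all genes. The lower call of JMJD1C (ncbi_110517734), at 6.41, 5.24 and 5.71 FPKM in acute hypoxia, against 12.3, 10.4 and 8.41 in moderate hypoxia, with 5.87, 5.96 and 4.82 in control livers, was made in every fit (log2 fold change -0.78 ± 0.15, adjusted p = 0.00944). Interferon genes (4 of 43 higher and 2 lower), insulin signalling (8 of 75 and 5) and cell cycle genes (1 of 18 and 0) were near or under the shares of all genes, and their counts turned to more lower than higher calls on the FPKM as deposited (1 and 8, 1 and 18, 0 and 1). The higher counts moved without 1 library to between 0 and 7 for interferon, 4 and 9 for insulin and 0 and 1 for cell cycle genes.

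The largest changes were of several kinds. They were picked among called genes whose acute and moderate libraries did not overlap, so this separation is no added finding. pla2g3 (ncbi_110536804), a secreted phospholipase, had the lowest fold change, with 0.264, 0.147 and 0.479 FPKM in acute hypoxia, against 6.28, 9.13 and 4.88 in moderate hypoxia (log2 fold change -3.17 ± 0.23, adjusted p = 0.000324). Control liver gave 15.8, 18.8 and 12.8. aacs (ncbi_110525090), which activates acetoacetate for lipid synthesis, had 8.71, 1.68 and 10.4 FPKM in acute hypoxia, against 37.7, 47.4 and 29.6 in moderate hypoxia (log2 fold change -2.66 ± 0.53, adjusted p = 0.0119). itln (ncbi_110532177), an intelectin that binds microbial sugars, had 1.03, 1.3 and 3.18 FPKM in acute hypoxia, against 13, 12.3 and 14.1 in moderate hypoxia (log2 fold change -2.65 ± 0.28, adjusted p = 0.00146). Another set was high in moderate hypoxia alone. GABRB2 (ncbi_110533363), a receptor subunit known from neurons, had 2.52, 6.76 and 2.97 FPKM in acute hypoxia, against 28.2, 23.1 and 26.1 in moderate hypoxia (log2 fold change -2.63 ± 0.29, adjusted p = 0.00156). Control livers had 3.82, 2.58 and 3.58. USP9X (ncbi_110504735), a deubiquitinase, had 4.23, 4.3 and 11.8 FPKM in acute hypoxia, against 39.7, 34.3 and 63 in moderate hypoxia (log2 fold change -2.77 ± 0.37, adjusted p = 0.00263). Control livers stood at 3.8, 9.91 and 8.95. UNC13C (ncbi_110526645, log2 fold change -2.54 ± 0.43, adjusted p = 0.00624) and inppl1a (ncbi_110507218, log2 fold change -2.46 ± 0.31, adjusted p = 0.0024) had the same order of groups, with control values of 3.15, 3.45 and 3.57 and of 3.62, 4.69 and 4.39. Each of these 4 also had all moderate libraries above all control ones.

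At the other end stood keratin and ubiquitin genes whose control libraries disagreed among themselves. These genes, and saa below, had moderate values near 0 and passed the filter only through the acute libraries where they are high. Their calls and their rank are therefore no independent support, and the size of their fold changes depends on the 0.5 added before the log. The type II keratin e1 (ncbi_100137013) had 4.17, 2.42 and 4.15 FPKM in acute hypoxia, against 0.0139, 0.0353 and 0.0323 in moderate hypoxia (log2 fold change 2.92 ± 0.19, adjusted p = 0.000283). Control livers were at 0.0753, 2.1 and 4.09. k13 (ncbi_100136068), keratin 13, had 4.06, 2.52 and 7.17 FPKM in acute hypoxia, against 0.136, 0.122 and 0.202 in moderate hypoxia (log2 fold change 2.86 ± 0.29, adjusted p = 0.00121). Controls had 0.314, 2.15 and 3.97. A polyubiquitin-like gene, UBB (ncbi_118936268), had 6.99, 6.15 and 3.51 FPKM in acute hypoxia, against 0.135, 0.113 and 0.272 in moderate hypoxia (log2 fold change 3.13 ± 0.23, adjusted p = 0.000324). Controls stood at 0.482, 4.73 and 10.4. The ubiquitin-like gene ublp (ncbi_100136629) had 5.76, 2.34 and 1.14 in acute hypoxia, was listed at 0 in all 3 moderate libraries and had 0.088, 3.12 and 4.04 in control livers. In these 4 genes control 1 was near the moderate and control 3 near or above the acute libraries. saa (ncbi_100136145), the acute phase protein serum amyloid A, had 3.64, 4.36 and 0.266 FPKM in acute hypoxia, against 0, 0 and 0.0712 in moderate hypoxia, and 0, 1.58 and 4.13 in control livers; its adjusted p of 0.0325 by limma became 0.0951 without acute 1, 0.0941 without acute 2, 0.0995 without moderate 1, 0.0797 without moderate 2 and 0.07 without moderate 3.

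**Figure D5:**
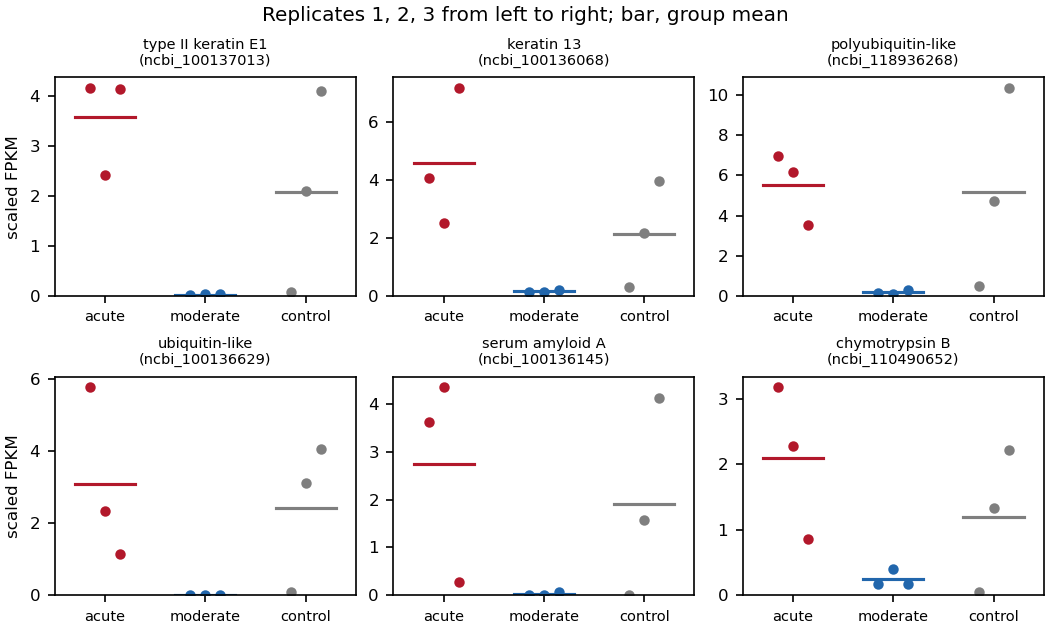
Scaled FPKM of 6 genes in the 3 acute (red), 3 moderate (blue) and 3 control libraries (grey), replicates 1 to 3 from left to right, with a bar at the group mean. All 3 moderate libraries are under 0.5 in each gene, and the control libraries run from under 0.5 in control 1 to over 2 in control 3.

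Genes of the exocrine pancreas, which makes digestive enzymes, varied between libraries of 1 group as well. Their summed level over 45 matched genes was 93.7, 71.3 and 33.6 scaled FPKM in acute, 12.3, 95.6 and 13.9 in moderate and 9.09, 39.1 and 71.9 in control livers; 2 of 15 tested genes were called higher (median log2 fold change 0.85); 12 of the 45 were at 0 in all 6 libraries. Without moderate 2, 12 were called, and 1 each without acute 2, moderate 1 or moderate 3. CTRB1 (ncbi_110490652), chymotrypsin B, had 3.18, 2.28 and 0.852 FPKM in acute hypoxia, against 0.178, 0.407 and 0.166 in moderate hypoxia (log2 fold change 1.69 ± 0.33, adjusted p = 0.0111). Levels of 0.0488, 1.33 and 2.22 were measured in control livers. CTRB1 passed the filter only through the acute libraries. The part of pancreatic RNA in other results was not tested. Red cell markers had 1 of 33 genes higher and 1 lower, with summed levels of 2230 to 3700 in acute, 2050 to 3270 in moderate and 3270 to 3570 in control livers, and 27 of the 67 matched genes at 0 in all 6 libraries. Macrophage markers had 3 of 14 higher and 11 not called, with sums of 85.7 to 103 in acute, 76.9 to 81.2 in moderate and 90.2 to 99.9 in control livers. Among the 3 were 2 copies of mafb, a transcription factor of macrophages. These were ncbi_110494563 (log2 fold change 1.08 ± 0.16, adjusted p = 0.00419) and ncbi_110527907 (log2 fold change 0.80 ± 0.14, adjusted p = 0.00781). A further copy, mafba (ncbi_110492522), overlapped between the groups, at 5.07, 4.32 and 3.5 FPKM in acute hypoxia, against 4.85, 4.27 and 4.34 in moderate hypoxia. Lymphocyte markers had 0 of 17 tested genes called higher and 2 lower, granulocyte markers 2 of 6 and 0, and endothelial markers 2 of 17 and 1. Bile duct markers had 2 of 17 and 0 and stellate cell markers 5 of 44 and 1, beside 9.89% and 9.93% of all genes. The sums overlapped between acute and moderate hypoxia for lymphocytes (173 to 214, against 186 to 210), granulocytes (16.1 to 20, against 14.8 to 33.8) and endothelium (41.5 to 43.4, against 43 to 45.2). They did not overlap for bile duct (336 to 364, against 289 to 308) or stellate cells (1560 to 1660, against 1350 to 1510). Of all the calls in these 5 lists and the red cell list, 1 stellate cell marker was called in each fit without 1 library. The stellate cell sum rested largely on TIMP2 and fibronectin genes, and 5 of its 44 tested genes were called higher and 1 lower. A TIMP2-like gene (ncbi_118937779) had 270, 288 and 292 FPKM in acute hypoxia, against 169, 189 and 226 in moderate hypoxia. The fibronectin gene FN1 (ncbi_110528732) overlapped, at 447, 387 and 429 against 379, 455 and 408. COL6A1 (ncbi_110517228) was below its moderate libraries, at 68.4, 78 and 61.8 against 91.7, 102 and 96.1. Muscle markers had sums of 15.8 to 21.3 in acute, 5.99 to 8.76 in moderate and 7.13 to 22.1 in control livers, with 40 of 128 matched genes at 0 in all 6 libraries; 3 passed the filter and 1, myh6 (ncbi_110529347), was lower (log2 fold change -1.74 ± 0.31, adjusted p = 0.00755).

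Among 3039 pairs of tested genes with the same product or symbol, which include different genes listed under 1 symbol such as inhibin beta B and beta C, both genes were called in 247 and 1 of the 2 in 711. In 101 pairs both were higher, in 128 both lower, and in 18 the genes were called in opposite directions; 3 pairs had identical values in all 6 libraries. With 1 library left out the opposite pairs numbered 3 without acute 1, 3 without acute 2, 7 without acute 3, 7 without moderate 1, 4 without moderate 2 and 4 without moderate 3. PLXNB1, a semaphorin receptor, is an example: ncbi_110517572 had 19.3, 13.9 and 22.8 FPKM in acute hypoxia, against 7.26, 7.95 and 5.79 in moderate hypoxia (log2 fold change 1.34 ± 0.19, adjusted p = 0.00307), while ncbi_110529031 had 1.36, 1.34 and 1.33 FPKM in acute hypoxia, against 2.22, 1.9 and 1.81 in moderate hypoxia (log2 fold change -0.42 ± 0.11, adjusted p = 0.0318), and the second call had an adjusted p of 0.0763 without acute 1, 0.0807 without acute 2, 0.0656 without acute 3, 0.106 without moderate 1, 0.0698 without moderate 2 and 0.0503 without moderate 3.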

How the data were processed

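Total RNA was extracted from flash-frozen liver with Trizol and made into Illumina libraries, per the labels' protocols. Bowtie2 2.2.8 and TopHat2 2.1.1 are named in the submitters' processing notes. No source used here gives the build or annotation. The authors deposited FPKM per gene and library with their own log2 fold changes, p-values and false discovery rates. Names and genomic spans came from the RefSeq table of USDA_OmykA_1.1, matched by gene ID for 41896 of 42128 IDs; no coordinates or sequences are printed.

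Each library was divided by its median-of-ratios factor, log2(FPKM + 0.5) was formed, and limma 3.58.1 in R 4.3.3 tested acute against moderate hypoxia over the 13979 genes with a mean FPKM of at least 1, with a variance trend and Benjamini-Hochberg adjustment. The lowest mean kept was 1.0002 and the highest left out 0.99917; 703 genes lay at 1 to 1.1 and 751 at 0.9 to 1. The code was tested on simulated data. Genes named were, by rule, the 15 highest and 15 lowest, up to 3 members per list and direction by p, and up to 10 opposite pairs of the same product or symbol; others are said to be named after their values were seen. The comparison, members and gene lists were chosen with earlier results of these data known. Alternatives were other scalings, pseudocounts, filters, variance settings, a replicate block, control libraries in the fit, and leaving out each library; the span adjustment and the alternatives for these pairs were chosen after seeing the data. Depth per library is unknown, so no counting intervals are given.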

Additional observations from a re-analysis of the deposited data

How the results depend on the processing

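The count of 2771 calls became 1262 at a mean FPKM of at least 5 (of 4241 tested), 324 with a log2 fold change of at least 1 added, and 1338 to 2346 with 1 library left out; these sets are not subsets of the 2771, apart from the 324, and without a filter 1899 of 34789 were called, 1137 higher and 762 lower. The fit on the FPKM as deposited is given above. Other scalings, pseudocounts and variance settings gave counts within 1.5 times of 2771: quantile normalization called 1102 higher and 1258 lower, scaling to the 75th percentile 1296 and 1499. Acute and moderate libraries share only a replicate number: the correlations of deviations between libraries of the same number were -0.0496, -0.035 and -0.0839, and 0 of the libraries correlated best with their own number. A fit with the replicate block called 1839 genes.

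The 2358 distinct list members tested held 616 calls, and 351 to 541 with 1 library left out. Opposite calls in 18 pairs of genes with the same product or symbol became 11 after quantile normalization, 12 on the FPKM as deposited, 5 with the replicate block and 3 to 7 without 1 library. The log2 fold change of glut1a was 0.51 on the FPKM as deposited (limma adjusted p = 0.0624), 0.70 with the replicate block (0.0947) and 0.65 to 0.76 without 1 library. The log2 fold change of hif1a (ncbi_100135944) was -0.07 on the FPKM as deposited, against 0.18 after scaling, and neither passed the test. The cause of these changes was not tested beyond the fewer genes or libraries that a filter or omission leaves. With 3 libraries a group and unknown depth, a gene that missed the threshold is not shown to be unchanged.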
